A study of Arabidopsis thaliana with 8 samples.

Results

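Calmodulin-like (CML) genes encode small calcium sensors, and 10 of them that are known for answering touch, wounding or other stress were examined across 8 Affymetrix arrays of Arabidopsis thaliana rosette leaves. They were taken by locus identifier as CML24 (TCH2, AT5G37770), CML12 (TCH3, AT2G41100), CML23 (AT1G66400), CML37 (AT5G42380), CML38 (AT1G76650), CML39 (AT1G76640), CML40 (AT3G01830), CML41 (AT3G50770), CML42 (AT4G20780) and CML43 (AT5G44460), and all 10 are among the 27826 loci measured. The set was proposed with the difference between these 2 groups already known, so that difference is described for the members and not tested. Of the arrays, 4 came from a mutant whose titles give a depleted steady-state level of NAA50, an N-terminal acetyltransferase, and 4 from wild type (WT) Col-0. The line's ecotype field reads animaa50, and the sources used here do not give how the depletion was made or in which cells. Plants of both groups stood 7 weeks on soil in short days, and leaves were taken and frozen 2 h into the light period.

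Calmodulin and its relatives bind calcium through EF-hand loops, change shape when cellular calcium rises, and pass that change on to the proteins they bind. Touch, wind, wounding and microbial molecules all give brief calcium rises in leaves, and the TCH genes were found through the strong rise of their transcripts after plants are touched. TCH1 is the calmodulin gene CAM2, TCH2 and TCH3 are the members CML24 and CML12, and TCH4 is XTH22, an enzyme that remodels cell wall xyloglucan.

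NAA50 mRNA (AT5G11340) went against the group's name, with log2 values of 10.24 to 10.52 in the array group labelled NAA50-depleted against 4.23 to 4.75 in WT, so each direction below is that of the labels. Array values correlated across loci at 0.979 to 0.988 within a group and at 0.951 to 0.967 between groups. The leaf label was checked on marker genes. All 5 mesophyll markers lay above the array median of 2.73 on every array, and all 11 markers of roots, seeds and flowers lay below it on every array, between 1.02 and 2.7. The labels do not say that arrays came from separate plants, so any error here measures the spread between these arrays, which may be technical. In whole leaves, a change in the number of cells that express a gene cannot be told apart from a change in its RNA per cell.

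Against this scale, CML24 and CML12 lay above the array median on all 8 arrays, CML23, CML39 and CML43 lay below it on all 8, and the other 5 crossed it. For 7 of the 10 genes every WT value lay below the array median, in the range where the root, seed and flower markers also lay, and signal over background was not given there. The fold changes of these 7 are less certain than those of CML24 and CML12. At an adjusted p under 0.05 in limma, 4 members (CML24, CML12, CML40 and CML42) were higher on the NAA50-depleted arrays and 0 were lower. Of all loci 14.5% passed, 6.95% as higher and 7.58% as lower. The 1934 higher and 2108 lower loci became 2267 and 1559 after cyclic loess normalization, under which the same direction was found for each member. All 4 NAA50-depleted values exceeded all 4 WT values at 5 members (those 4 and CML38), where 8.48% of all loci did so, 10.4% lay wholly lower and 18.8% had no overlap in either direction. Since the set was chosen on this contrast, nothing is read from either count. The median member differed by 0.72 on the log2 scale, against -0.03 for the median locus.

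CML12 and CML24 had the largest differences among the members. CML12, or TCH3, which carries more EF hands than ordinary calmodulin and binds the auxin-related kinase PINOID, had log2 values of 9.91, 10.39, 10.48 and 10.36 on the NAA50-depleted arrays, against 7.07, 7.38, 7.24 and 7.44 on the WT arrays. The groups stood far apart, with SDs of 0.256 on the NAA50-depleted arrays and 0.163 on the WT arrays. Its difference was 3.00 ± 0.15 on the log2 scale (moderated SE, 4 arrays in each group). That is 8.02-fold, with a 95% interval of 6.40 to 10.1. CML24, or TCH2, which acts in flowering time and in autophagy, had 7.26, 7.50, 7.92 and 7.21 on the NAA50-depleted arrays, against 4.72, 5.02, 5.09 and 5.83 on the WT arrays. WT replicate 4 was the highest of its group and still lay below every NAA50-depleted array. The CML24 difference was 2.31 ± 0.23, or 4.95-fold with an interval of 3.48 to 7.05.

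CML23 is the closest relative of CML24, and the pair is known to act together in flowering. CML23 stayed at the dim end of every array, with 1.29, 1.57, 1.82 and 1.92 on the NAA50-depleted arrays, against 1.43, 1.25, 1.64 and 1.36 in WT. The groups overlapped, and its difference of 0.23 had an interval of -0.11 to 0.57. That interval lies wholly below the CML24 interval of 1.8 to 2.82 on the log2 scale, though a gene near the floor of the array has little range in which a change can show.

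**Figure D1:**
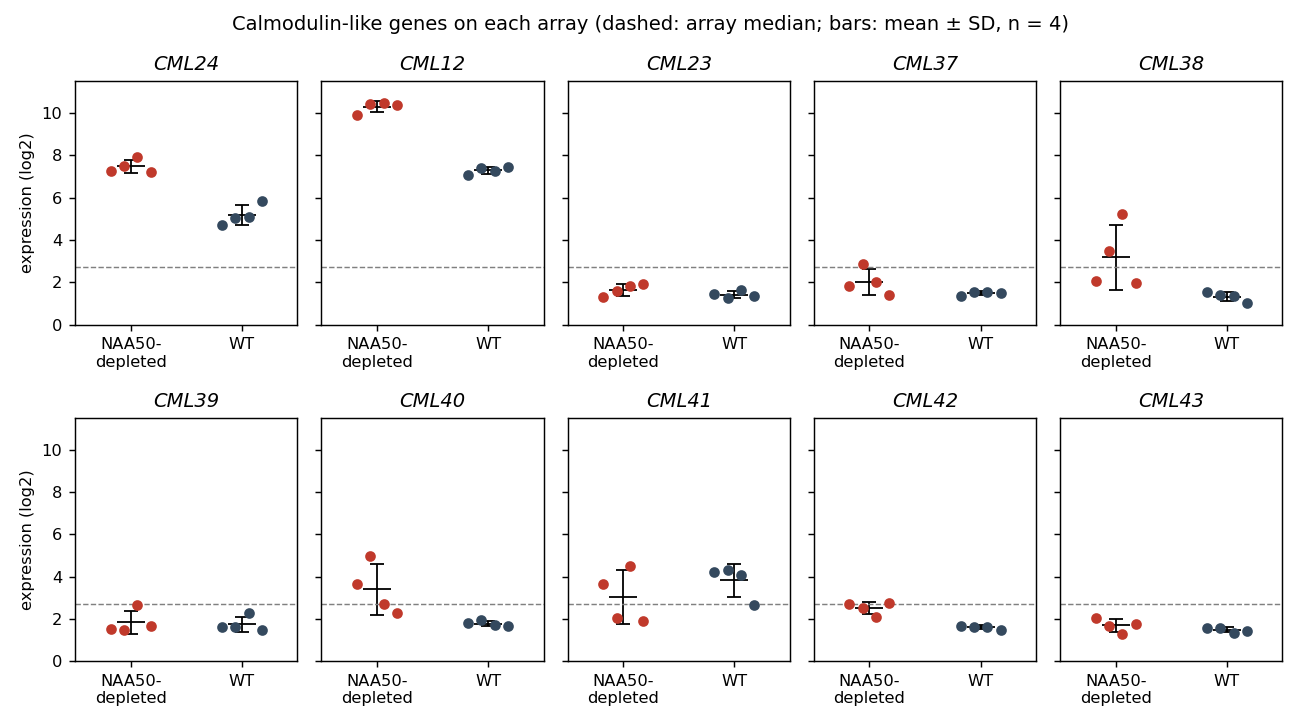
Log2 expression (vertical axis) of the 10 calmodulin-like genes on each array, with the NAA50-depleted arrays (red) left of the WT arrays (dark); points are arrays in order of replicate number, bars are the group mean ± SD (n = 4), and the dashed line is the array median of 2.73. CML12 and CML24 lie above the dashed line in both groups with a clear gap between them, while CML38, CML40 and CML41 are widely scattered among the NAA50-depleted arrays.

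CML37, CML38 and CML39 are related genes that respond to wounding, insects and drought. CML38, which also belongs to the genes induced by low oxygen and sits in stress-related RNA granules, had 2.06, 3.49, 5.21 and 1.95 on the NAA50-depleted arrays, against 1.56, 1.40, 1.34 and 1.01 in WT. All NAA50-depleted arrays were higher, but they spread over 9.60-fold among themselves, with replicate 3 far above replicates 1 and 4. The CML38 difference was 1.85 ± 0.58 with an interval of 0.58 to 3.12, and it was 1.17 without NAA50-depleted replicate 3. It was not among the 4 members that passed. It did pass without NAA50-depleted replicate 1 (2.22), 3 (1.17) or 4 (2.26), and also with the replicate block, the filter on dim loci or array weights. CML39, which is known for seedling growth and seed development and lies beside CML38 on chromosome 1, had 1.52, 1.49, 2.67 and 1.67, against 1.63, 1.62, 2.27 and 1.47 in WT. Only replicate 3 of each group stood above the others. Its difference was 0.09 with an interval of -0.49 to 0.67, and it was -0.19 without NAA50-depleted replicate 3 and -0.0020 without WT replicate 4.

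CML37, a positive regulator of defence against herbivores, had 1.83, 2.84, 2.00 and 1.42 on the NAA50-depleted arrays, against 1.34, 1.55, 1.52 and 1.51 in WT. Replicate 2 was the highest and replicate 4 lay inside the WT range, so the groups overlapped. The difference of 0.54 ± 0.24 had an interval of 0.01 to 1.08, and it was 0.27 without replicate 2. CML40 had 3.64, 4.97, 2.69 and 2.29, against 1.81, 1.95, 1.71 and 1.66 in WT. Here too replicate 2 was the highest and replicate 4 the lowest, over a range of 6.39-fold, but no NAA50-depleted array reached down to the WT arrays. The CML40 difference was 1.61 ± 0.45 with an interval of 0.62 to 2.60. It no longer passed with trended robust variance (1.61), nor without WT replicate 1 (1.62), 2 (1.67), 3 (1.59) or 4 (1.57) or NAA50-depleted replicate 1 (1.53), and without NAA50-depleted replicate 2 it was 1.09.

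With all arrays, CML41 was the only member with a negative difference. It is a protein of plasmodesmata, the channels between plant cells, where it promotes callose closure after bacterial flagellin. Its values were 3.64, 2.06, 4.52 and 1.93 on the NAA50-depleted arrays, against 4.21, 4.33, 4.07 and 2.66 in WT. NAA50-depleted replicates 2 and 4 lay below all WT arrays, replicate 3 lay above all of them, and WT replicate 4 stood apart below its own group. The difference was -0.78 ± 0.55 with an interval of -2.0 to 0.43. Leaving out one array at a time gave -1.27 without NAA50-depleted replicate 3 and -0.41 without replicate 4 of that group, so the direction held in each case while the size changed.

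CML42 and CML43 are a pair of related genes. CML42, which acts in trichome branching and restrains defence against herbivores, had 2.69, 2.50, 2.1 and 2.75 on the NAA50-depleted arrays, against 1.67, 1.64, 1.64 and 1.48 in WT. The groups did not overlap, and the SD was 0.294 on the NAA50-depleted arrays and 0.0866 in WT. Its difference was 0.90 ± 0.15, or 1.87-fold with an interval of 1.49 to 2.34. CML43, which is linked to the hypersensitive cell death of immune responses, had 2.06, 1.67, 1.28 and 1.78, against 1.58, 1.58, 1.34 and 1.46 in WT. NAA50-depleted replicate 3 lay below every WT array, and the CML43 difference of 0.21 had an interval of -0.14 to 0.56. None of the 5 trichome marker genes passed in limma (1 at an unadjusted p under 0.05), and their mean log2 level was 2.54 to 2.66 on the NAA50-depleted arrays, against 2.64 to 3.00 in WT. GL1, GL3 and MYB106 of this list had group means below the array median. The part of the trichome markers in the CML42 difference was not tested.

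**Figure D2:**
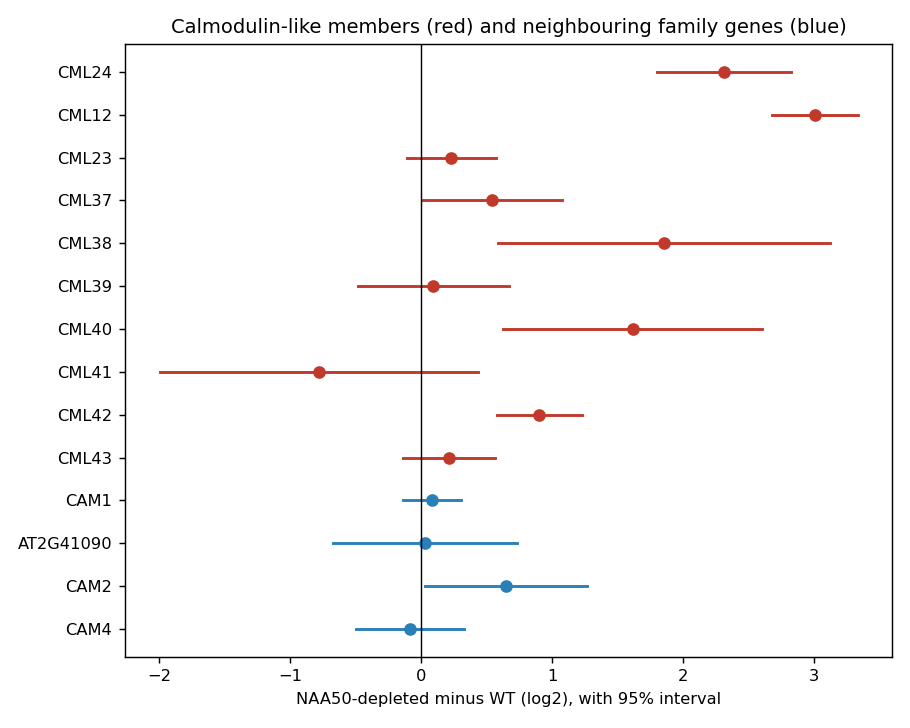
Difference between the NAA50-depleted and WT arrays on the log2 scale (horizontal axis) for the 10 members (red) and for 4 genes of the same family that lie beside a member on the chromosome (blue); dots are differences and lines 95% intervals (n = 4 arrays per group). CML12 and CML24 have the highest values, CML41 the lowest, and the intervals of CAM1, CAM4 and AT2G41090 span 0.

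The members differed in how much they varied within a group. The SD was larger among the NAA50-depleted arrays than among the WT arrays for 9 of the 10 genes, CML24 being the exception, while this held for 50.8% of all loci. CML38, CML40 and CML41 had SDs of 1.53, 1.19 and 1.26 among the NAA50-depleted arrays, where the median locus had 0.192. Among the WT arrays the SDs of CML38 and CML40 were 0.230 and 0.124, while that of CML41 was 0.780 and the median locus had 0.191. The WT values of 7 members lay below the array median, and the part of signal level in these SDs was not tested.

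The arrays on which the scattered genes were high were not the same. CML38, CML39 and CML41 were highest in NAA50-depleted replicate 3, by 2.03, 0.83 and 1.48 above their group means. CML24 and CML12 were also highest there, by 0.45 and 0.20. CML37 and CML40 were highest in replicate 2, by 0.82 and 1.57. CML42 and CML43 went the other way from CML38, lying lowest in replicate 3 at -0.41 and -0.42 from their group means. CML40 was at -0.71 and CML38 at 2.03 on that same array, so no single array was high for all members. Replicate 4 was the lowest for CML24, CML37, CML38, CML40 and CML41.

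**Figure D3:**
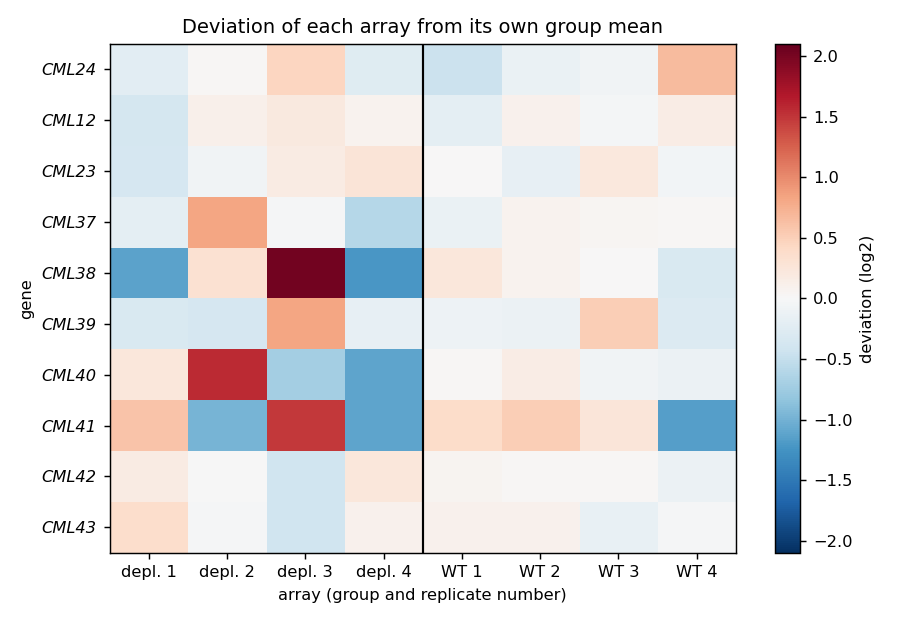
Deviation of each array (columns) from its own group mean on the log2 scale (colour) for each member (rows), NAA50-depleted replicates 1 to 4 on the left and WT replicates 1 to 4 on the right. The deepest red cell is CML38 in NAA50-depleted replicate 3 at 2.03, and the rows of CML38 and CML40 are paler on the WT side.

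Averaged over the 10 members, the log2 value was 3.59, 3.85, 4.07 and 3.33 on the NAA50-depleted arrays, against 2.7, 2.77, 2.79 and 2.59 in WT. Among 13910 other loci with a mean above the median locus, the 5 whose values followed this mean most closely had Pearson r of 0.991 to 0.996 over the 8 arrays, a likeness set largely by the step between the groups that all share. They were AT4G14370, LRR XI-23 (AT1G09970), AT1G33760, AT1G69840 and AT1G56140. AT1G33760 had the highest difference of these at 3.17 ± 0.47, with 4.83, 5.62, 6.28 and 3.43 on the NAA50-depleted arrays, against 1.85, 2.16, 1.74 and 1.75 in WT.

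Several members sit beside other calcium sensor genes on the chromosome, and these neighbours were examined next. CML12 lies between AT2G41090, a gene of the CML list, and CAM2 (TCH1), CML24 lies beside CAM1, and CML23 beside CAM4. AT2G41090 lay above the array median on all arrays, at 10.32, 10.49, 9.37 and 10.53 on the NAA50-depleted arrays, against 9.48, 10.78, 10.55 and 9.79 in WT. The groups overlapped fully, and its difference was 0.03 with an interval of -0.67 to 0.73 (adjusted p = 0.974 in limma), where its neighbour CML12 differed by 3.00. CAM2 had 2.46, 1.71, 3.36 and 2.69, against 1.8, 1.99, 2.20 and 1.65 in WT, a difference of 0.65 ± 0.28 (adjusted p = 0.173). Without NAA50-depleted replicate 2 the CAM2 difference was 0.93 and it passed (adjusted p = 0.0210). CAM1 differed by 0.08 (interval -0.14 to 0.30) and CAM4 by -0.09 (interval -0.50 to 0.32). CAM1 lay below the array median on all arrays, so, as for CML23, a change has little range in which to show. Of the 14 nearest measured genes outside the family on either side of the members, 0 passed in limma, where 14.5% of all loci did. With 14 genes a count of 0 is not set apart from that share. An unadjusted p under 0.05 was found for 1 of them, and their median difference was -0.04. Several of the 14 lay below the array median on every array, where a change has little range in which to show.

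The genes of calmodulin itself were then counted. None of the 7 calmodulin genes CAM1 to CAM7 passed in limma, 1 of them (CAM2) had an unadjusted p under 0.05, and their median difference was 0.08. Over all loci 14.5% passed, and with 7 genes a count of 0 is not set apart from that share. For 2 of the 7, CAM1 and CAM5, every array lay below the array median. Several of these genes encode the same protein, and whether the probes tell them apart was not examined here.

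Of 40 further CML loci, 6 rose and 1 fell, which is 17.5% called against 14.5% of all loci, and their median difference was 0.06. By direction that is 15% higher and 2.5% lower, against 6.95% and 7.58% of all loci. For 20 of these 40 every array lay below the array median, and the 1 that fell is among them. The 5 that rose at least 2-fold, where 3.19% of all loci did so, are given by locus. AT1G18210 had 6.80, 7.23, 7.40 and 6.51 on the NAA50-depleted arrays, against 5.81, 5.48, 5.75 and 5.64 in WT, and rose by 1.31 ± 0.19 (adjusted p = 0.000676 in limma). AT3G25600 rose by 1.17 ± 0.25 (adjusted p = 0.00802) and AT3G10300 by 1.42 ± 0.28 (adjusted p = 0.00501), with no overlap between the groups at these 3 loci.

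AT3G29000 was also scattered, with 4.07, 6.20, 5.57 and 3.09 on the NAA50-depleted arrays, against 2.59, 2.93, 3.32 and 2.21 in WT. It rose by 1.97 ± 0.56 (adjusted p = 0.0353 in limma), but replicate 4 lay inside the WT range. Its call was lost without WT replicate 1 (1.91), 2 (2.03) or 4 (1.78) or NAA50-depleted replicate 2 (1.48) or 3 (1.69). AT5G39670 rose by 1.03 ± 0.31 (adjusted p = 0.0469), a call lost without any one WT array (0.91 to 1.13) and without NAA50-depleted replicate 1 (0.75) or 2 (0.89). The remaining pair that passed were AT2G43290, which rose by 0.89 ± 0.19, and AT3G10190, which fell by 0.75 on the log2 scale. That pair falls outside the rule for named genes and was named after its values were seen.

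Of 20 genes known to respond within minutes to mechanical stress, 16 rose and 0 fell in limma, where 6.95% of all loci rose, and their median difference was 2.13. XTH22, or TCH4, had 8.96, 8.96, 9.23 and 8.93 on the NAA50-depleted arrays, against 2.84, 3.31, 3.42 and 4.34 in WT, and rose by 5.54 ± 0.26 (adjusted p = 8.94e-07). WT replicate 4 was the highest of its group for XTH22, as it was for CML24. The ERF-family factor DREB26 rose by 4.22 ± 0.33, and EXO, a growth-related cell wall protein that responds to brassinosteroids, by 4.05 ± 0.17. All WT values of EXO lay below the array median. The mean log2 level of the 20 genes was 5.86, 6.37, 6.46 and 5.42 on the NAA50-depleted arrays, against 3.56, 3.83, 3.93 and 3.88 in WT. The order of the 4 NAA50-depleted arrays (replicate 3, then 2, 1 and 4) was the same as for the mean of the 10 members. This list and the other gene lists here, above and below, were drawn up with earlier results of these data known. Their directions and shares are therefore not independent evidence. Of the TCH genes, CAM2 differed by 0.65, CML24 by 2.31, CML12 by 3.00 and XTH22 by 5.54 on the log2 scale.

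Calcium also reaches its targets through calcium-dependent protein kinases (CPK) and through CBL sensors with their CIPK kinases. Of 34 such genes, 12 rose and 2 fell in limma, with a median difference of 0.17. That is 35.3% higher and 5.88% lower, against 6.95% and 7.58% of all loci, so the share that fell was near that of the whole table. CPK28, which turns over the immune kinase BIK1, had 6.81, 7.80, 7.20 and 6.92 on the NAA50-depleted arrays, against 4.62, 4.76, 5.23 and 5.31 in WT, and rose by 2.20 ± 0.23 (adjusted p = 8.80e-05). CPK32 rose by 2.1 ± 0.17 and CIPK3 by 1.31 ± 0.17. CIPK6 fell by 1.12 on the log2 scale and CIPK20 by 1.11, each with no overlap between the groups.

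Of 9 genes for calmodulin-binding transcription factors, 5 rose and 0 fell in limma (55.6% higher, against 6.95% of all loci), with a median difference of 0.57. CBP60G, an activator of salicylic acid synthesis, rose by 1.81 ± 0.21 (adjusted p = 0.000215), its partner SARD1 by 1.61 ± 0.32 and CBP60A, a negative regulator of immunity, by 1.51 ± 0.18. CBP60G had 7.36, 7.76, 7.50 and 6.88 on the NAA50-depleted arrays, against 5.18, 5.97, 5.76 and 5.34 in WT.

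Genes for calcium channels, pumps and exchangers were counted in the same way. Of 44, 7 rose and 4 fell in limma (9 and 3 after cyclic loess), with a median difference of -0.02. That is 15.9% higher and 9.09% lower, against 6.95% and 7.58% of all loci, and the share that fell was again near that of the whole table. Calcium pumps ACA1 and ACA10 rose by 1.5 ± 0.22 and 1.08 ± 0.13, and the cyclic nucleotide-gated channel CNGC10 by 1.15 ± 0.21. All WT values of CNGC10 lay below the array median. CNGC4, a channel of immune signalling, fell by 1.19 on the log2 scale, the annexin ANN1 by 0.92 and OSCA1, a channel opened by osmotic stress, by 0.65. Adjusted p-values of these 6 were at most 0.00408.

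**Figure D4:**
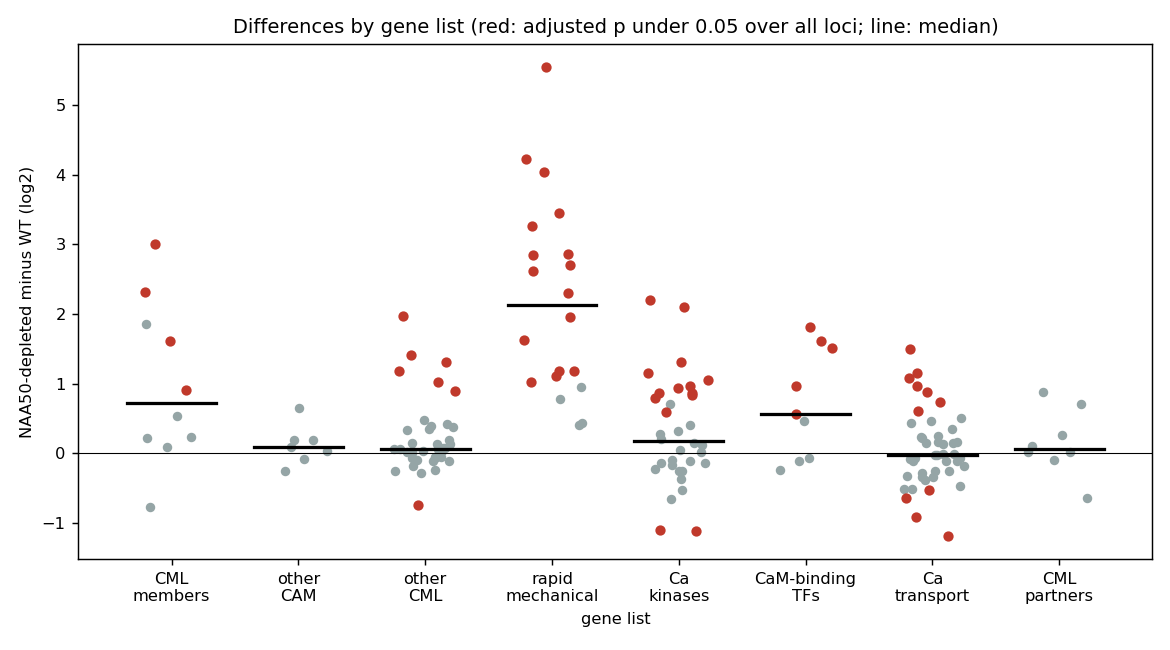
Difference between the NAA50-depleted and WT arrays on the log2 scale (vertical axis) for every gene of the 10 members and of 7 lists of related genes (horizontal axis); red points had an adjusted p under 0.05 over all loci in limma, grey points did not, and black lines are list medians. The rapid mechanical list has the highest median at 2.13, and the calcium transport list has a median of -0.02.

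Of 8 genes whose proteins are known to bind or to work with a member, 0 passed in limma, where 14.5% of all loci did. An unadjusted p under 0.05 was found for 3 of them. The share of all loci under that unadjusted threshold was not counted, so nothing is read from the 3. PID, the kinase bound by CML12, differed by -0.64 ± 0.20 (adjusted p = 0.0590), PDLP5, a plasmodesmal protein that closes these channels with callose, by 0.70 ± 0.23 (adjusted p = 0.0662) and the callose synthase CALS1 by 0.89 ± 0.39 (adjusted p = 0.177). PID passed with the replicate block or array weights and PDLP5 with the replicate block. PID also passed without WT replicate 2 (-0.78) or NAA50-depleted replicate 4 (-0.78), PDLP5 without NAA50-depleted replicate 4 (0.88) and CALS1 without WT replicate 3 (1.21). These genes were named after their values were seen. PDLP5 was higher on all NAA50-depleted arrays than on any WT array, where CML41, the member at the same channels, overlapped between the groups.

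Marker genes of leaf cell types were set beside these results. Of 5 guard cell markers 2 fell and 0 rose, where 7.58% and 6.95% of all loci did, and their mean log2 level was 3.78 to 3.94 on the NAA50-depleted arrays against 4.09 to 4.50 in WT. Of 6 epidermis markers 1 fell, with means of 6.37 to 6.74 against 6.68 to 6.88, and of 5 mesophyll markers 1 fell, with means of 9.72 to 10.08 against 10.16 to 10.37. Of 5 phloem companion cell markers 1 rose, with means of 4.83 to 5.46 against 4.66 to 5.71. HT1 of the guard cell list and PDF1 of the epidermis list had group means below the array median. Their part in the differences of the calmodulin-like genes was not tested.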

How the data were processed

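Leaf RNA from 4 NAA50-depleted and 4 WT samples was hybridised to 1 Affymetrix array each, and groups came from the sample titles. The authors deposited RMA values, per the submitters' processing notes, as 1 log2 value for each of 27826 loci. RMA subtracts background, normalizes between arrays and summarises probes. The sources used here give no log base, chip definition or genome build; log2 was taken because RMA gives it. All arrays held the same sorted values, so a global shift cannot be seen. Depth has no meaning for arrays; their number limits the precision.

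All loci were fitted on group alone with limma 3.58.1 in R 4.3.3 (lmFit, eBayes, no filter), NAA50-depleted minus WT, with two-sided p-values, Benjamini-Hochberg adjustment across the whole table and a threshold of 0.05. The fit was tested on simulated data. Loci with an unadjusted p under 0.05 were not counted over the whole table, so counts at that threshold have no share beside them. Symbols and chromosome order came from RefSeq's TAIR10.1 gene table, which held 27241 of the loci, and coordinates are not printed. Of the 40 further CML loci 35 are listed by the family's numbering without a CML name in that table and are given by locus.

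The members and lists were chosen with earlier results of these data known. Named genes were the members, NAA50, family genes called at 2-fold or more or beside a member, the 3 largest called changes each way in each list outside the family and the markers, and the 5 loci most like the members' mean. The main fit did not pair arrays by the replicate numbers that the groups share. Deviations of same-numbered arrays correlated at -0.05 to 0.04, and those of other pairs at -0.07 to 0.10. Such correlations cannot show whether same-numbered arrays shared a batch. Alternatives were the replicate block, cyclic loess, median centring, a filter on dim loci (4 or more arrays over percentile 25), trended robust variance, array weights, an adjusted p of 0.01 and each array left out.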

Additional observations from a re-analysis of the deposited data

Results flagged for a closer look

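In groups of 4 arrays, a single array lay far from the other 3 by Dixon's ratio in 6 of the 84 groups of named genes examined, where chance marks about 1 in 20. CML39 in NAA50-depleted replicate 3 was at 2.67, with the others at 1.49 to 1.67. CML41 in WT replicate 4 was at 2.66, with the others at 4.07 to 4.33, and CML42 in WT replicate 4 was at 1.48, with the others at 1.64 to 1.67. AT3G25600 was at 4.45 in WT replicate 1, against 5.57 to 5.77 on the others. XTH22 was at 9.23 in NAA50-depleted replicate 3, against 8.93 to 8.96, and LRR XI-23 was at 3.93 in WT replicate 4, against 4.31 to 4.36.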

How the results depend on the processing

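Of the members and the other named genes, none that was called changed direction under any alternative. Of the members that were not called, CML39 did, at -0.19 without NAA50-depleted replicate 3 and -0.0020 without WT replicate 4. The median member difference was 0.59 to 0.79 with single arrays left out and could not be given under the filter on dim loci, which 6 of the 10 members passed. At an adjusted p of 0.01, 2238 loci passed (1228 higher, 1010 lower), with 4 of the further CML genes (0 lower) and 9 of the calcium kinase genes (7 higher). With single arrays left out, 0 to 1 calmodulin gene was called (0 to 1 higher) and 0 to 2 partner genes (0 to 1 higher, 0 to 1 lower). The replicate block called 2 partner genes (PDLP5, 1 higher, and PID, 1 lower), 5 members in place of 4 (CML38 added) and 3545 loci in place of 4042. Array weights called 1 partner gene (PID, 1 lower) and 5 members, and the filter on dim loci 5 members, CML38 being the one added by each. The replicate block changed no call of another gene named by the rule. Under it the calcium kinase genes had 11 higher and 3 lower, in place of 12 and 2. Calcium transport genes had 6 higher and 3 lower under it, in place of 7 and 4. Of the 4 called members, CML40 lost its call with trended robust variance, at an adjusted p of 0.01 and without the single arrays given above. The other 3 kept theirs under every alternative. Since the members were chosen on this contrast, their calls are description, and nothing is read from calls kept, gained or lost. Of 28 other named genes that were called, 26 kept the call under every alternative at the 0.05 threshold. AT3G29000 and AT5G39670 lost it in the cases given above and with trended robust variance. Among uncalled neighbours, AT2G41090 was -0.013 with array weights and -0.20 to 0.30 with single arrays left out, and CAM4 was -0.27 to 0.032. Dim signal limits the sizes for 7 members. It also limits those of EXO, CNGC10 and AT1G33760, whose WT values all lay below the array median. The number of arrays limits all sizes.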
